A study of Sus scrofa with 24 samples.

Results

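The transcription factor NRF2 (gene NFE2L2), its sensor KEAP1 and a set of oxidant defence genes were followed in pig bronchial epithelial cells grown at an air-liquid interface. The set had 35 gene symbols. A member was a row of the count table whose pig Ensembl ID carries one of those symbols, with at least 1 CPM (the count as a share of the library total, scaled to a fixed total) in 4 or more libraries. Of the 35 symbols, 32 were matched by symbol, all 32 met that level and all 32 were tested, among 14172 genes tested in the whole series. TXN, GPX1 and FTH1 were not matched and were not analysed here. GPX3 reached 1 CPM in 5 libraries and ABCC2 in 14, while the other 30 reached it in all 24.

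The cells came from the bronchi of wild-type pigs of 1 month, per the labels, and were sequenced as total RNA with paired ends. The study asked how flagellin, the flagellum protein of bacteria that is sensed by TLR5, acts on these cells and what the p38 kinase inhibitor SB203580 does to that response. In 4 libraries each, cells were preincubated for 1 h with 20 µM SB203580 and given 100 ng/ml flagellin for 24 h, or preincubated with the vehicle DMSO and given the same flagellin, or PBS, for 24 h. The same 3 treatments were sampled at 2 h, which makes 6 groups and 24 libraries. Below, flagellin and PBS stand for cells preincubated with DMSO. No library used here had SB203580 without flagellin, so an effect of SB203580 on its own and an effect on the flagellin response cannot be told apart. The labels do not say whether the 4 replicates came from separate animals or cultures, so the p-values rest on how far these libraries spread, part of which may be technical.

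NRF2 is a transcription factor that is held in the cytoplasm and marked for degradation by KEAP1, a sensor whose cysteines react with oxidants and electrophiles. When KEAP1 is modified, NRF2 accumulates, pairs with a small MAF protein such as MAFG and binds antioxidant response elements of its target genes. Its targets make and recycle glutathione and thioredoxin, supply NADPH, detoxify quinones and handle haem and iron. Airway epithelium is exposed to inhaled oxidants and to those made by neutrophils, and this pathway is one of its main defences. The regulation is largely of NRF2 protein, which RNA counts do not measure.

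Libraries held 26345945 to 36267289 counts in pig genes (median 32494270), and libraries of a group differed by more than counting error, with a chi-square per gene of 10.3 to 390 over 36 pairs. Every library had the epithelial genes EPCAM (243 to 401 CPM) and CDH1 (1180 to 2186 CPM), while the leukocyte genes CD3E and PTPRC were at 0 and at most 0.113 CPM. The ciliated cell regulator FOXJ1 was at 1.53 to 22.8 CPM, and the club cell gene SCGB1A1 was at 0 to 14.8 CPM. Replicates 3 and 4 of every group stood apart from replicates 1 and 2. The Y chromosome genes EIF1AY and KDM5D were at most 0.0284 and 0 CPM in replicates 3 and 4, and at 17.9 to 32.2 and 3.72 to 5.62 CPM in replicates 1 and 2. By these genes the sets came from different animals. How many animals each set holds is not given, so the 4 libraries of a group may come from fewer than 4 animals. Among replicates 1 and 2, 5 libraries were low in ciliated cell markers (mean log2 CPM under 1), namely SB203580 plus flagellin at 24 h (1 and 2), flagellin at 24 h (2), SB203580 plus flagellin at 2 h (1) and PBS at 2 h (2). By the same level 9 of the 12 libraries of replicates 3 and 4 were low as well, and the 5 are set below against the other libraries of replicates 1 and 2 alone. Each comparison was therefore fitted without a block and also with a term for the replicate set at each time. A gene was called at an adjusted p under 0.05, with edgeR's quasi-likelihood F test and Benjamini-Hochberg adjustment over all tested genes.

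The oxidant defence genes were among the well expressed genes of these cells. Levels are compared between genes here as TPM, in which counts are divided by exon length and scaled to the same total in each library. The mean TPM over the 24 libraries was above 100 for 20 of the 32 members, against 12.3% of all genes tested. FTL, the ferritin light chain that stores iron, led with 4503 TPM, followed by the epithelial glutathione peroxidase GPX2 with 1880 TPM and SQSTM1, the autophagy adaptor that competes with NRF2 for KEAP1, with 1071 TPM. NQO1, a quinone reductase and classical NRF2 target, had a mean of 1003 TPM but a median of 431 TPM. NFE2L2 itself had 226 TPM and KEAP1 43.4 TPM. The export pump ABCC2 (1.55 TPM) and the secreted peroxidase GPX3 (1.08 TPM) were the lowest. From the lowest to the highest library, CPM differed less than 2-fold for 10 members, among them KEAP1 (1.38-fold) and the peroxiredoxin PRDX2 (1.36-fold). It differed more than 4-fold for 9 members, and NQO1 was widest among the members at 10 TPM or more, at 24.7-fold.

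**Figure D1:**
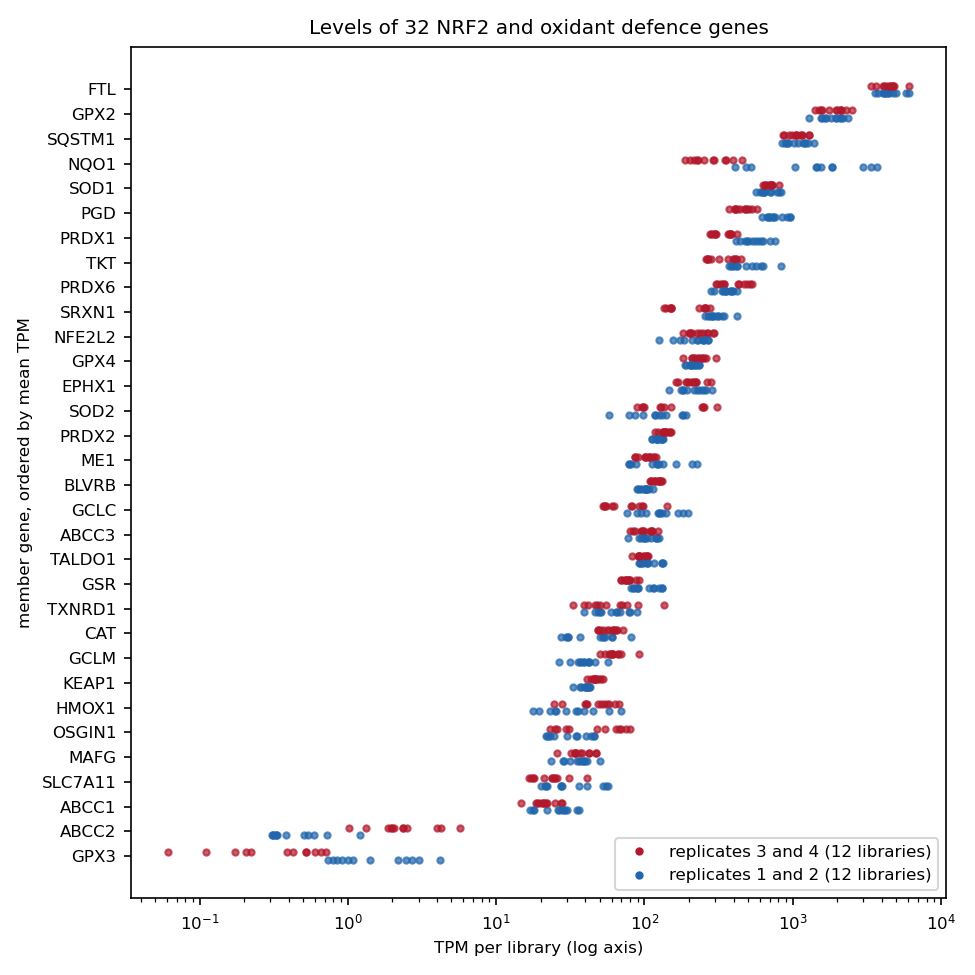
TPM of each of the 32 members (log axis) in the 24 libraries, ordered by mean TPM, with replicates 3 and 4 in red above replicates 1 and 2 in blue. Levels run from GPX3 at 1.08 TPM to FTL at 4503 TPM, and the red and blue points lie apart for GPX3 and PGD.

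Flagellin at 2 h raised SOD2, the mitochondrial manganese superoxide dismutase, and no other member rose by the test. SOD2 (ENSSSCG00000040317, chromosome 1, 7679352 to 7691724, plus strand) is a known target of NF-kB as well as an oxidant defence enzyme. It had 255, 247, 394 and 319 CPM in flagellin replicates 1 to 4, against 182, 146, 182 and 153 CPM in PBS replicates 1 to 4. All 4 flagellin libraries lay above all 4 PBS libraries, and replicates 3 and 4 with flagellin were the highest of the 24. The mean was 304 ± 68.3 CPM with flagellin and 166 ± 19.0 CPM with PBS (SD, n = 4 each), a log2 difference of 0.87 (SE 0.17, adjusted p = 0.0214 by edgeR). It was 1 member of 32 in a comparison where 0.325% of all genes tested were called. Leaving out flagellin replicate 3 or 4, or PBS replicate 2, 3 or 4, took its adjusted p to between 0.0699 and 0.141, with a log2 difference of 0.72 to 0.92. In cell mixtures such as these, fewer cells of a type and less RNA per cell cannot be told apart.

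With the term for the replicate set, 2.24% of genes and 2 members were called at 2 h, and both moved the same way in each set of replicates. SOD2 was higher (log2 0.85, SE 0.14, adjusted p = 0.00102 by edgeR). Fitted alone, its log2 difference was 1.10 in replicates 3 and 4 (adjusted p = 0.000147) and 0.61 in replicates 1 and 2 (adjusted p = 0.657). The second was GCLM, the modifier subunit of glutamate-cysteine ligase, which makes the first step of glutathione synthesis. GCLM had 70.5, 66.1, 98.7 and 111 CPM in flagellin replicates 1 to 4, against 98.9, 92.0, 149 and 112 CPM in PBS replicates 1 to 4. Each flagellin library was below the PBS library of the same number, but the groups overlapped because replicates 3 and 4 were high in both. Its log2 difference was -0.40 (SE 0.08, adjusted p = 0.0097) with the set term and -0.38 (SE 0.19, adjusted p = 1.00) without it. Replicates 3 and 4 on their own gave -0.30, and replicates 1 and 2 gave -0.48. With the replicate number as a block, the adjusted p was 0.0191 for GCLM and 0.00799 for SOD2, where 1.07% of genes were called.

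No other NRF2 target was called at 2 h in these fits. SQSTM1 had 983, 924, 1014 and 1005 CPM with flagellin, against 722, 781, 709 and 776 CPM with PBS. Its groups did not overlap, which held for 2.42% of all genes in the upward direction and for 2 members, SQSTM1 and SOD2. The log2 difference of SQSTM1 was 0.39 (SE 0.18, adjusted p = 0.928 by edgeR without a block and 0.0761 with the set term). TXNRD1, the thioredoxin reductase, had 106, 108, 173 and 114 CPM with flagellin, against 77.7, 133, 81.7 and 65.1 CPM with PBS. Replicate 3 with flagellin was its highest library, and PBS replicate 2 lay above the other 3 flagellin libraries. Over all 32 members the median log2 difference was -0.04, against -0.0027 over all genes. Of the members 15 were above 0 and 17 below, and 49.4% of all genes were above 0. Among 11 NF-kB-induced genes taken as a comparison list, 8 were called higher in the same libraries, where 0.296% of all genes were. The median log2 difference of the list was 1.69. That list was chosen with earlier results of these data known, so its calls are a description and not a test.

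At 24 h of flagellin no member differed from PBS in any of the 3 fits, in which no gene of the series was called either. At an unadjusted p under 0.05, 112 genes (0.79%) and 0 members were reached without a block, and 535 genes (3.78%) and 1 member with the set term. DESeq2 called 1 gene of the series and 0 members. SOD2 had 155, 98.3, 111 and 116 CPM in flagellin replicates 1 to 4, against 112, 104, 106 and 108 CPM in PBS replicates 1 to 4. Flagellin replicate 1 was high and the other 3 were near PBS. Of the 32 members, 27 had a log2 difference above 0, as did 54.8% of all genes, with a median of 0.13 against 0.02 over all genes. Flagellin replicate 2, one of the 5 libraries low in ciliated cell markers, was the highest flagellin library at 24 h for NQO1, TKT, ME1, FTL and HMOX1. The difference of the SOD2 response between 24 h and 2 h was -0.71 on the log2 scale (SE 0.24, unadjusted p = 0.00766, adjusted p = 1.00), so a change in the response with time did not pass the test. In that comparison 0.0423% of genes (6) and 0 members were called. In replicates 3 and 4 alone it was -1.01 (SE 0.16, adjusted p = 0.0109).

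**Figure D2:**
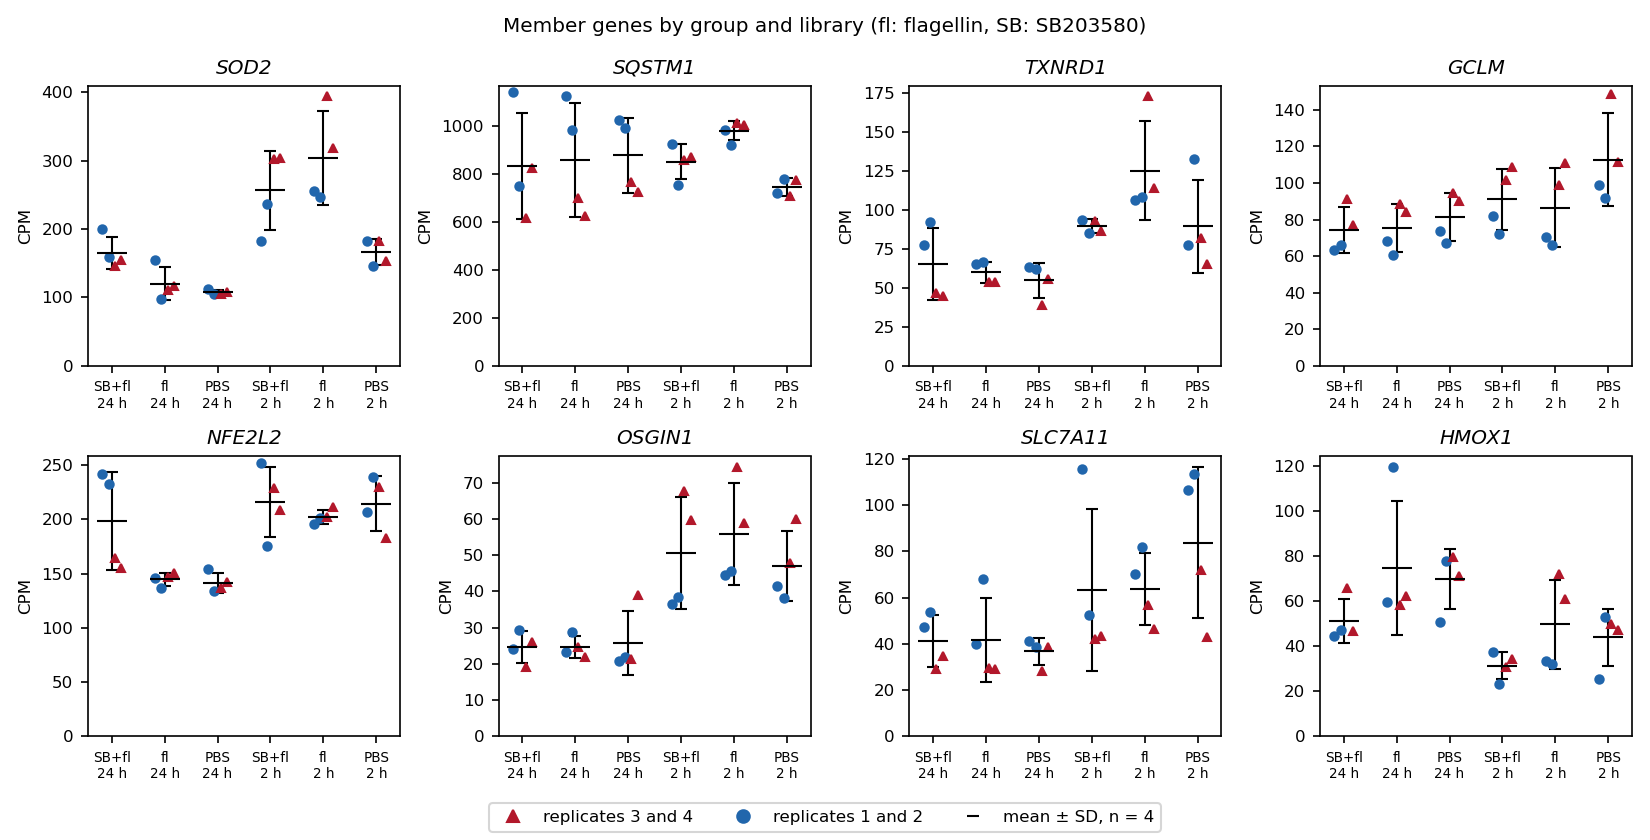
CPM of 8 members in each library by group, with 24 h groups left of 2 h groups and, within a time, SB203580 plus flagellin, flagellin and PBS from left to right. Triangles are replicates 3 and 4, circles replicates 1 and 2, and bars the mean ± SD (n = 4). SOD2 is highest in the 2 h flagellin groups, where its means were 257 and 304 CPM, and OSGIN1 is lower at 24 h than at 2 h in each treatment.

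In the fits over all replicates no member was called between SB203580 plus flagellin and flagellin alone, at 2 h or at 24 h. At 2 h, 0.00706% of genes (1 gene) were called without a block and 0.374% with the set term, and 0 members in both. At an unadjusted p under 0.05, 2.27% of genes and 1 member were reached without a block. At 24 h no gene was called without a block and 0.0917% with the set term, again with 0 members. At 24 h, 405 genes (2.86%) and 2 members reached an unadjusted p under 0.05 without a block, and DESeq2 called 1 gene and 0 members. At 2 h, SOD2 had 183, 237, 303 and 303 CPM with SB203580 plus flagellin (log2 -0.24, SE 0.17, adjusted p = 1.00). Each of the 4 was below the flagellin library of the same number, though the numbers were not shown to pair libraries within a set. At 24 h SOD2 had 199.8, 159, 147 and 155 CPM with SB203580 plus flagellin (log2 0.46, SE 0.17, adjusted p = 1.00). Each of the 4 was above the flagellin library of the same number. The test of that difference between the times gave 0.70 (SE 0.24, unadjusted p = 0.00827, adjusted p = 1.00). No gene was called there by edgeR or DESeq2, and 0.797% of genes (113) and 1 member reached an unadjusted p under 0.05.

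Some members differed in most libraries with SB203580 without passing the test. HMOX1, the inducible haem oxygenase, is on an unplaced sequence of the deposited annotation. It had 37.3, 23.3, 30.5 and 34.3 CPM with SB203580 plus flagellin at 2 h, against 33.6, 32.01, 71.8 and 61.0 CPM with flagellin alone. Flagellin replicates 3 and 4 were high, replicates 1 and 2 lay within the range with SB203580, and the log2 difference was -0.66 (SE 0.29, adjusted p = 1.00). Fitted on their own, replicates 3 and 4 gave -1.04 (SE 0.15, adjusted p = 0.00956 by edgeR), and replicates 1 and 2 gave -0.13 (adjusted p = 1.00). HMOX1 was the 1 member called in replicates 3 and 4 alone, and the share of all genes called in that fit is not given here. TXNRD1 had 93.2, 84.8, 93.0 and 86.5 CPM with SB203580 plus flagellin at 2 h, all below the 4 flagellin libraries (log2 -0.48, SE 0.23, adjusted p = 1.00). MAFG also had groups that did not overlap, at 15.8 to 23.9 CPM with SB203580 plus flagellin and 26.7 to 30.6 CPM with flagellin alone. These were 2 of 32 members, where 1.35% of all genes did not overlap in the downward direction. At 24 h the groups did not overlap for NFE2L2 and for EPHX1, the microsomal epoxide hydrolase, both upward, against 0.889% of genes. NFE2L2 had 242, 233, 165 and 155 CPM with SB203580 plus flagellin at 24 h, against 146, 136, 147 and 150.3 CPM with flagellin alone (log2 0.45, SE 0.13, adjusted p = 1.00). The difference lay mostly in replicates 1 and 2, whose SB203580 libraries at 24 h are low in ciliated cell markers; the part of that in the difference was not tested.

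Against PBS, SB203580 plus flagellin still had more SOD2 at both times in the fit with the set term. At 2 h 0.183% of genes and 0 members were called without a block, and 1.98% of genes and 1 member, SOD2, with the set term (log2 0.60, SE 0.13, adjusted p = 0.0209 by edgeR). Without a block its log2 difference was 0.63 (SE 0.17, adjusted p = 0.226). Replicates 3 and 4 on their own gave 0.86 (adjusted p = 0.00145), and replicates 1 and 2 gave 0.35 (adjusted p = 0.910). The 4 SB203580 libraries, at 183 to 303 CPM, lay just above the highest PBS library, at 182 CPM, and 2.11% of genes and this 1 member did not overlap upward. At 24 h 0.00706% of genes and 0 members were called without a block, and 0.459% of genes and 1 member, again SOD2, with the set term (log2 0.62, SE 0.13, adjusted p = 0.0449). With the replicate block the adjusted p of SOD2 was 0.0866 at 2 h and 0.255 at 24 h, so 0 members were called, where 0.804% and 0.0635% of genes were. All 4 SB203580 libraries at 24 h, at 147 to 199.8 CPM, lay above the PBS libraries, at 104 to 112 CPM. NFE2L2 and EPHX1 did not overlap with PBS at 24 h either, which with SOD2 makes 3 members where 1.43% of genes did so upward, and their adjusted p with the set term was 0.0905 and 0.0942.

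More members were called between 24 h and 2 h than in any comparison of treatments, and in these fits all but 1 of them fell. In PBS, 4 members were called without a block, all lower, where 4.88% of all genes were called lower and 5.28% higher. In flagellin 4 members were called, all lower, where 3.68% of genes were lower. In SB203580 plus flagellin 2 members were called, both lower, where 3.18% of genes were lower. With the set term the members called lower were 13 in PBS, 9 in flagellin and 5 in SB203580 plus flagellin, where 17.4%, 14.4% and 13.5% of genes were called lower. A single member, GSR in SB203580 plus flagellin, was called higher, where 13.6% of genes were. With the replicate block the members called lower were 11 in PBS, 6 in flagellin and 3 in SB203580 plus flagellin, where 11.4%, 9.26% and 8.42% of genes were, and GSR was again called higher, where 8.67% were. The median log2 difference of the members was -0.45 in PBS, -0.16 in flagellin and -0.11 in SB203580 plus flagellin, against -0.01, 0.01 and 0.01 over all genes. These 3 comparisons use different libraries, and 17 members were below 0 in all 3 while 4 were above 0 in all 3 (GPX4, GSR, HMOX1 and PRDX6). Of all genes 48.9% were above 0 in PBS, 51.7% in flagellin and 51.3% in SB203580 plus flagellin. The share of all genes below 0 in all 3 is not given here. PBS replicate 2 at 2 h is low in ciliated cell markers and no PBS library of replicates 1 and 2 at 24 h is, and the part of that in the PBS median was not tested.

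**Figure D3:**
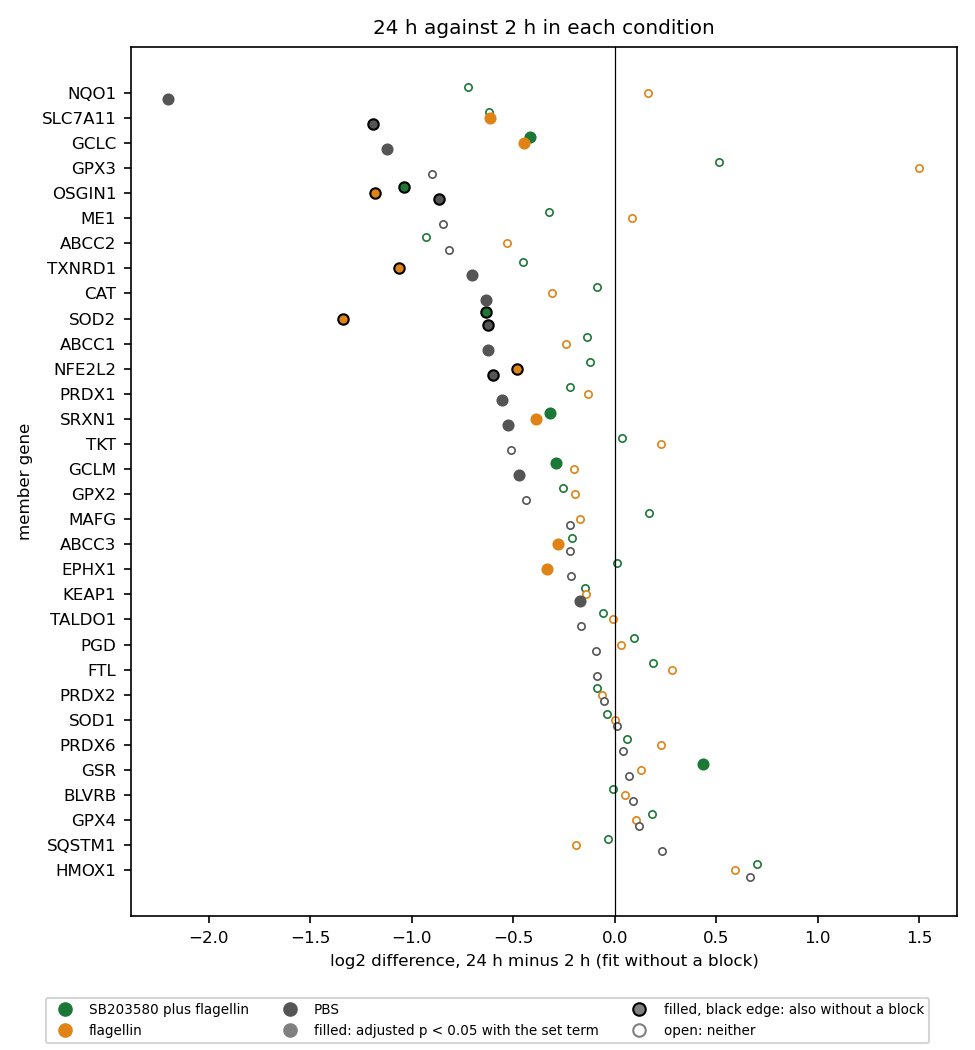
Log2 difference of 24 h minus 2 h for the 32 members in SB203580 plus flagellin (green, top of each row), flagellin (orange) and PBS (grey), from the fit without a block. Filled points were called with the set term and black edges mark those also called without a block. Points of OSGIN1 and SOD2 are filled with a black edge in all 3 treatments.

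OSGIN1 and SOD2 were the members called in all 3 treatments without a block, and GCLC and SRXN1 joined them with the set term. GCLC did not fall in every replicate. In SB203580 plus flagellin it had 204, 201, 63.6 and 74.5 CPM at 24 h, against 309, 171, 127 and 119 CPM at 2 h. In flagellin replicate 2 it had 188 CPM at 24 h and 187.5 CPM at 2 h. OSGIN1 is a growth inhibitor induced by oxidative stress. It had 24.0, 29.4, 19.0 and 26.1 CPM at 24 h, against 36.6, 38.5, 67.7 and 59.8 CPM at 2 h, in SB203580 plus flagellin (log2 -1.04, SE 0.24, adjusted p = 0.00997). In flagellin it had 23.3, 28.8, 24.6 and 21.8 CPM at 24 h, against 44.6, 45.6, 74.4 and 58.9 CPM at 2 h (log2 -1.18, SE 0.24, adjusted p = 0.00394). The times did not overlap in either treatment, which in SB203580 plus flagellin held downward for this 1 member and 5.88% of genes. In PBS it had 20.7, 21.9, 21.4 and 39.1 CPM at 24 h, against 41.5, 38.3, 47.9 and 60.1 CPM at 2 h (log2 -0.86, SE 0.24, adjusted p = 0.0237). Replicate 4 of PBS at 24 h reached into the range at 2 h, and without PBS replicate 3 or 4 at 2 h, or replicate 1, 2 or 3 at 24 h, the adjusted p was 0.0534 to 0.0775.

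SOD2 fell with time also where no flagellin had been given. In PBS it had 112, 104, 106 and 108 CPM at 24 h, against 182, 146, 182 and 153 CPM at 2 h, with no overlap (log2 -0.63, SE 0.17, adjusted p = 0.0241 by edgeR). The log2 difference was -1.34 (SE 0.17, adjusted p = 6.97e-05) in flagellin and -0.63 (SE 0.17, adjusted p = 0.0281) in SB203580 plus flagellin. In flagellin every library at 24 h was below every library at 2 h, while in SB203580 plus flagellin replicate 1 was higher at 24 h than at 2 h. In replicates 3 and 4 alone the differences were -0.64 in PBS, -1.65 in flagellin and -1.02 in SB203580 plus flagellin, and in replicates 1 and 2 alone they were -0.58, -0.99 and -0.22. The last was not called (adjusted p = 0.579). Leaving out PBS replicate 1 or 3 at 2 h, or 2, 3 or 4 at 24 h, took the adjusted p in PBS to between 0.0533 and 0.0700. Leaving out replicate 3 or 4 at 2 h, or 2, 3 or 4 at 24 h, took it to between 0.0621 and 0.0952 in SB203580 plus flagellin.

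NFE2L2 (ENSSSCG00000015987, chromosome 15, 82973655 to 83009164, minus strand) fell in PBS and in flagellin. It had 154, 134, 136 and 142 CPM at 24 h, against 207, 239, 229.7 and 183 CPM at 2 h, in PBS (log2 -0.60, SE 0.13, adjusted p = 0.00666). In flagellin it had 146, 136, 147 and 150.3 CPM at 24 h, against 195, 202, 202 and 211 CPM at 2 h (log2 -0.48, SE 0.13, adjusted p = 0.0260). The times did not overlap in either, and the PBS call held without any 1 library, while that in flagellin moved to an adjusted p of 0.0533 to 0.0638 without 1 of 6 libraries (replicate 2, 3 or 4 at 2 h, or 1, 2 or 3 at 24 h). In SB203580 plus flagellin it had 242, 233, 165 and 155 CPM at 24 h, against 252, 175, 229 and 209 CPM at 2 h, with a log2 difference of -0.12 (SE 0.13) that was not called. There the sets went apart, at -0.47 in replicates 3 and 4 (adjusted p = 0.00877) and 0.16 in replicates 1 and 2 (adjusted p = 0.549), each fitted on its own. KEAP1 had 100.2, 103, 100.1 and 101 CPM at 24 h, against 108, 109, 116 and 123 CPM at 2 h, in PBS. These ranges did not overlap, and the difference was called with the set term (log2 -0.17, SE 0.06, adjusted p = 0.0243) but not without it (adjusted p = 0.130) or with the replicate block (adjusted p = 0.0797). In PBS 7 members had times that did not overlap downward, against 8.23% of all genes, and in flagellin 4 had, against 7.13%.

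Among the genes of glutathione supply, the cystine importer SLC7A11 and both subunits of glutamate-cysteine ligase fell in PBS. SLC7A11 had 41.4, 38.7, 28.2 and 38.6 CPM at 24 h, against 107, 114, 71.8 and 43.1 CPM at 2 h, in PBS. All 4 libraries at 24 h were below all 4 at 2 h, the smallest gap being in replicate 4 (log2 -1.19, SE 0.35, adjusted p = 0.0347). Its adjusted p was 0.0533 to 0.110 without PBS replicate 1, 2 or 3 at 2 h, or without any 1 PBS library at 24 h. GCLC, the catalytic subunit, had a log2 difference of -1.08 (SE 0.20, adjusted p = 0.000382) and GCLM of -0.47 (SE 0.08, adjusted p = 0.000223) with the set term. Neither was called without it (adjusted p = 0.105 and 0.129), and both were called with the replicate block (0.00138 and 0.000636). GSR, which reduces oxidised glutathione, rose in SB203580 plus flagellin with the set term (log2 0.39, SE 0.07, adjusted p = 0.000624), higher in 4 of 4 replicates, and was not called without it (adjusted p = 0.390).

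In the thioredoxin branch, TXNRD1 fell in flagellin and SRXN1, which repairs overoxidised peroxiredoxins, was lower in all 3 treatments with the set term. TXNRD1 had 65.0, 66.7, 53.8 and 53.7 CPM at 24 h, against 106, 108, 173 and 114 CPM at 2 h, in flagellin (log2 -1.06, SE 0.24, adjusted p = 0.00805). The times did not overlap, and leaving out any 1 library kept the call. SRXN1 had set-term log2 differences of -0.59 in PBS, -0.54 in flagellin and -0.45 in SB203580 plus flagellin (adjusted p = 0.00221, 0.00469 and 0.0164). Without the term none of the 3 was called (adjusted p = 0.455, 0.633 and 0.723). In flagellin SRXN1 had 234 and 302 CPM at 24 h in replicates 1 and 2, against 275 and 260 CPM at 2 h. Replicates 3 and 4 had 105 and 103 CPM at 24 h, against 233 and 207 CPM at 2 h. In SB203580 plus flagellin replicate 2 also did not fall, at 266 CPM against 244 CPM. In PBS TXNRD1 (log2 -0.72, adjusted p = 0.00806), PRDX1, CAT and NQO1 were called lower with the set term and with the replicate block but not without a block, and ABCC1 with the set term alone. PBS replicate 2 at 2 h, low in ciliated cell markers, was the highest PBS library for these 4. It had 133 CPM of TXNRD1 (65.1 to 81.7 in the other 2 h PBS libraries), 842 of PRDX1 (366 to 582), 149 of CAT (74.0 to 86.3) and 2544 of NQO1 (174 to 1204). Replicates 1, 3 and 4 were also lower at 24 h for each. The fit with the set term was not repeated without that library. PRDX2, PRDX6, GPX2, GPX4 and SOD1 were called in none of the 3 treatments in these fits.

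Of the 3 members of haem and iron handling none was called with time in the fits over all replicates. HMOX1 had higher values at 24 h in PBS and in SB203580 plus flagellin. It had 50.7, 77.7, 79.4 and 71.2 CPM at 24 h, against 25.3, 53.1, 50 and 47.3 CPM at 2 h, in PBS. Every replicate was higher at 24 h although the ranges overlapped (log2 0.67, SE 0.29, adjusted p = 0.151 without a block and 0.0602 with the set term). In SB203580 plus flagellin the times did not overlap, at 44.7 to 65.8 CPM against 23.3 to 37.3 CPM (log2 0.70, SE 0.29, adjusted p = 0.160), which held upward for 1 member and 5.84% of genes. In flagellin HMOX1 had 59.4, 119, 58.0 and 62.3 CPM at 24 h, against 33.6, 32.01, 71.8 and 61.0 CPM at 2 h. There replicate 3 was lower at 24 h and replicate 4 was nearly level. FTL had log2 differences of -0.09 in PBS, 0.28 in flagellin and 0.19 in SB203580 plus flagellin, and BLVRB, a biliverdin reductase, had 0.09, 0.05 and -0.01. Beside the time differences in PBS, summed ciliated cell markers were at 47.8 to 80.9 CPM at 24 h and 31.0 to 81.7 CPM at 2 h, with 0 of 11 markers called. Summed squamous epithelium markers were at 2133 to 3268 CPM at 24 h and 2480 to 11375 CPM at 2 h, with 0 of 8 called. Their part in the time differences was not tested.

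NQO1 (ENSSSCG00000002754, chromosome 6, 17292770 to 17302627, plus strand) varied more between libraries than between treatments. At 24 h it had 1091, 987, 145 and 109.8 CPM in SB203580 plus flagellin, 268, 2557, 124 and 133 CPM in flagellin and 317, 348, 136 and 114 CPM in PBS (replicates 1 to 4). At 2 h it had 2709, 679, 218 and 245 CPM in SB203580 plus flagellin, 1056, 1280.1, 226 and 185 CPM in flagellin and 1204, 2544, 277 and 174 CPM in PBS. Replicates 3 and 4 were low in every group. Within each time the highest libraries were those of replicates 1 and 2 that are low in ciliated cell markers, although 3 other libraries at 2 h (1056 to 1280.1 CPM) reached the level of the lower such libraries at 24 h (987 and 1091 CPM). In PBS NQO1 was lower at 24 h in 4 of 4 replicates, with a log2 difference of -2.20 (SE 1.13, adjusted p = 0.240) without a block and -1.55 (SE 0.54, adjusted p = 0.0355) with the set term, and it was called with the replicate block (adjusted p = 0.0455).

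The NADPH genes were high in the same 5 libraries, which is a description, since the libraries were grouped by a marker level seen in the data. The 9 libraries of replicates 3 and 4 under that level had no such values. At 24 h NQO1 was at 987 to 2557 CPM in the 3 libraries low in ciliated cell markers and at 268 to 348 CPM in the 3 other libraries of replicates 1 and 2. At 2 h it was at 2544 to 2709 CPM in the 2 low libraries and at 679 to 1280.1 CPM in the 4 others. TKT, the transketolase of the pentose phosphate pathway, was at 732 to 773 CPM in the low libraries at 2 h and 471 to 607 CPM in the others. ME1, the cytosolic malic enzyme, was at 319 to 349 CPM in the low libraries at 2 h and 119 to 191 CPM in the others. The gaps were narrow at 2 h for PGD (375 to 500 CPM against 304 to 372 CPM) and TALDO1 (214 to 262 CPM against 165 to 211 CPM). At both times 11 members lay above all the other libraries of replicates 1 and 2 (ABCC1, FTL, GCLC, ME1, NQO1, PGD, PRDX1, SLC7A11, SRXN1, TALDO1 and TKT), as did 5.73% of all genes. At each time 15 members lay above, against 13.4% of genes at 2 h and 14.2% at 24 h, and 2 members lay below at each time, against 12.1% and 11.6% of genes. GPX4 and OSGIN1 were the 2 below at 2 h, and GCLM and SOD1 at 24 h. The squamous marker mean of the low libraries at 2 h was 8.57 to 8.86 log2 CPM, against 7.34 to 8.28 in the others, and the club and secretory marker mean was 5.65 to 5.71 against 6.96 to 7.11. Treatment differed between the kinds of library at 24 h. The low ones were SB203580 plus flagellin replicates 1 and 2 and flagellin replicate 2. The others were PBS replicates 1 and 2 and flagellin replicate 1. Treatment and library kind can therefore not be told apart at 24 h, which also bears on the members above at both times. The part of cell composition in these levels was not tested.

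**Figure D4:**
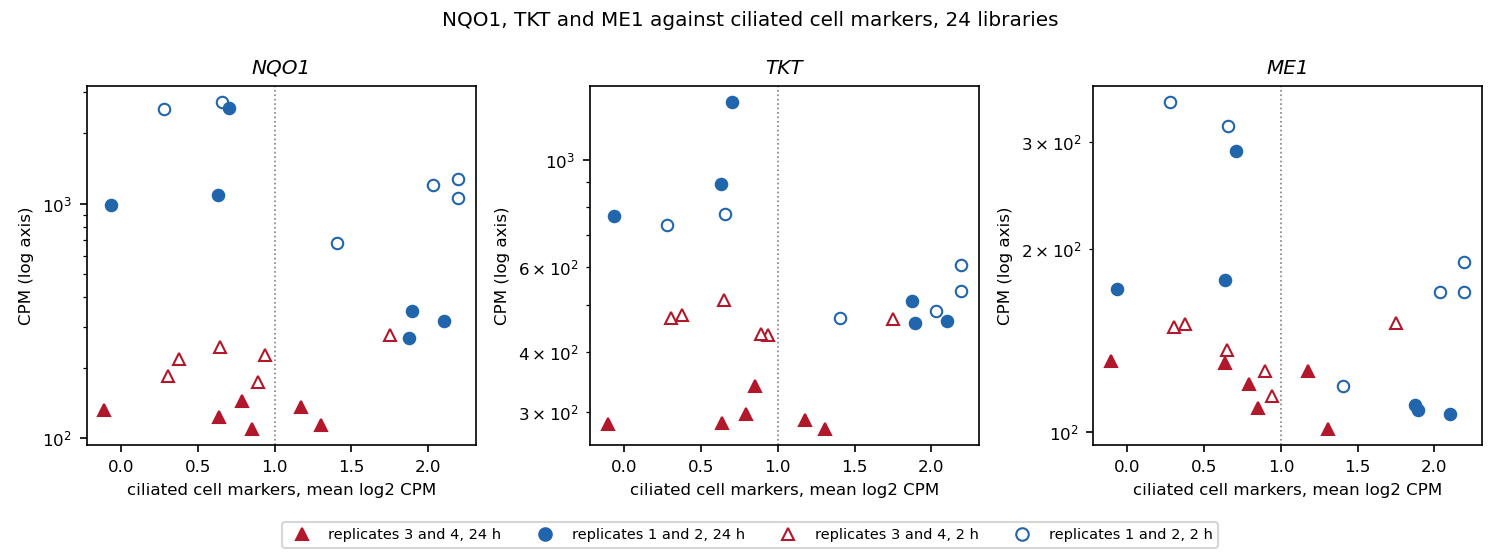
CPM of NQO1, TKT and ME1 (log axes) against the mean log2 CPM of ciliated cell markers in the 24 libraries, with filled points at 24 h and open points at 2 h. Triangles are replicates 3 and 4 and circles replicates 1 and 2, and the dotted line marks a mean of 1. The 5 circles left of the line hold the highest NQO1 of replicates 1 and 2 at their own time, while triangles stay between 109.8 and 277 CPM of NQO1 on both sides.

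Replicates 3 and 4 differed from replicates 1 and 2 over the same treatments and times in 21 of the 32 members, where 68.3% of all genes were called. Of these, 18 were lower in replicates 3 and 4, where 34.5% of genes were, and 3 were higher (GCLM, OSGIN1 and ABCC2), where 33.8% of genes were. NQO1 had the largest log2 difference (-2.73, SE 0.33), followed by GPX3 (-2.49, SE 0.38) and ABCC2 (2.15, SE 0.27). The sets did not overlap for 4 members, all lower in replicates 3 and 4, against 4.02% of genes. PGD, which makes NADPH in the pentose phosphate pathway, was at 161 to 264 CPM in replicates 3 and 4 and at 304 to 546 CPM in replicates 1 and 2. GSR was at 57.1 to 77.9 CPM in replicates 3 and 4 and at 80.7 to 146 CPM in replicates 1 and 2. PRDX1, a thioredoxin-dependent peroxidase, was at 259 to 409 CPM in replicates 3 and 4 and at 432 to 894 CPM in replicates 1 and 2. NFE2L2 and KEAP1 did not differ by the test (log2 -0.09, SE 0.07, and 0.00, SE 0.03, with adjusted p = 0.234 and 0.920). The summed markers of squamous epithelium were at 2133 to 2922 CPM in replicates 3 and 4 and at 2634 to 13550.4 CPM in replicates 1 and 2, and those of club and secretory cells at 749.7 to 1332 and 1900.3 to 3848 CPM. The libraries of a set may come from few animals. The SE, adjusted p and calls of this comparison therefore rest on the spread between libraries and do not measure that between animals. Animal, cell composition and any handling that went with the replicate number cannot be told apart here.

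**Figure D5:**
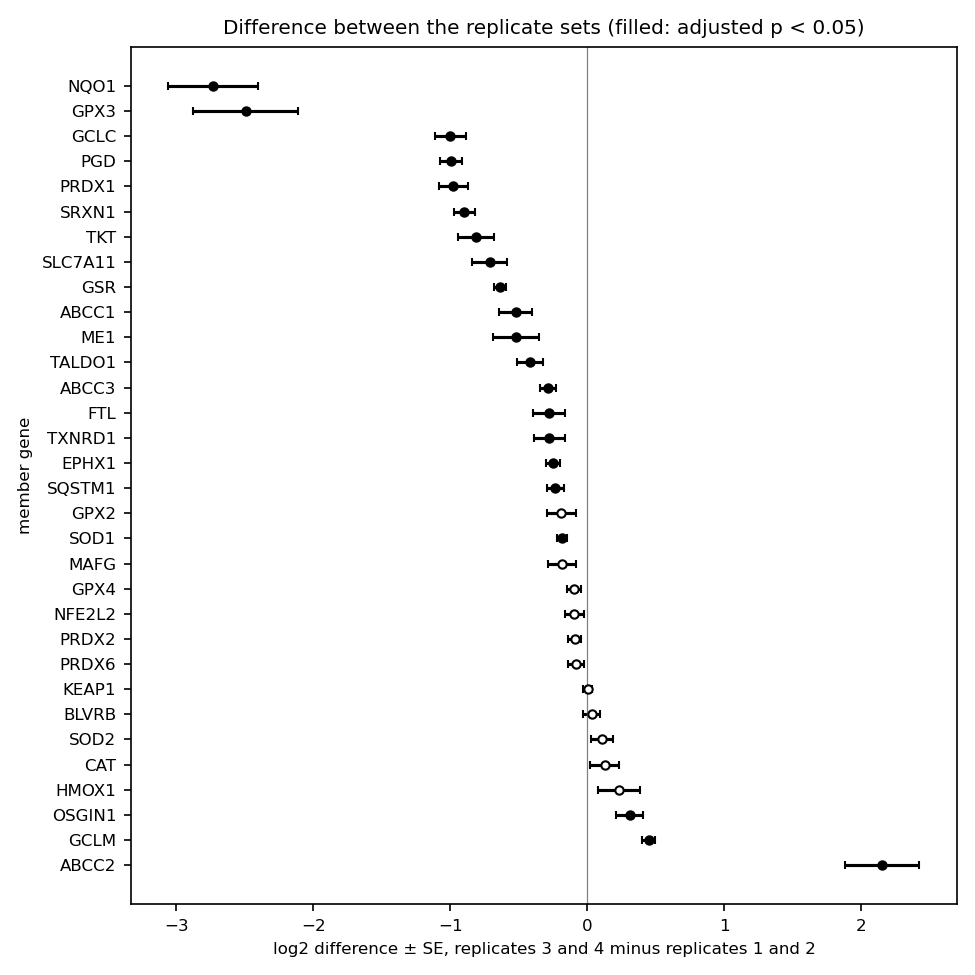
Log2 difference ± SE of each member between replicates 3 and 4 and replicates 1 and 2 (12 libraries each), where values below 0 are lower in replicates 3 and 4. Filled points were called by edgeR's quasi-likelihood F test, 18 on the left of 0 and 3 on the right, from NQO1 at -2.73 to ABCC2 at 2.15. The SE and calls rest on libraries, which may come from few animals in each set.

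Genes around the pathway, from lists that held no member, were called by time and not by treatment without a block. Apart from the NF-kB list, none of the 7 lists held a call in the 6 comparisons of treatments. With the set term MSRB1, which reduces oxidised methionine, and TXNIP, an inhibitor of thioredoxin, were higher with flagellin at 2 h (log2 0.69 and 0.83, adjusted p = 9.86e-06 and 0.000316 by edgeR). Without it their adjusted p was 0.0541 and 0.276. In that fit 3 more genes of the lists were higher there, TRIM16, PPP1R15A and TRIB3 (log2 0.60, 0.81 and 0.72), and 2.24% of all genes were called. For SB203580 plus flagellin against flagellin the set term called PPP1R15A lower at 2 h (log2 -0.73) and CYP1B1 higher at 24 h (log2 1.94), where 0.374% and 0.0917% of all genes were called. With time in PBS the 7 lists together held 13 called genes of 126 tested (10.3%), a share near the 10.2% of all genes called, and 45 with the set term (35.7%), against 33.2% of all genes. The genes named below are therefore a description of single genes. Among 17 regulators of NRF2, 1 was higher and 1 lower at 24 h in PBS. BACH1, a repressor that competes for antioxidant response elements, fell (log2 -0.87, SE 0.23, adjusted p = 0.0187). PALB2, a DNA repair protein that binds KEAP1 in human cells, rose (log2 0.43, SE 0.13, adjusted p = 0.0352).

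Among 21 other peroxide and thiol enzymes the endoplasmic reticulum peroxiredoxin PRDX4 was the 1 called in PBS and rose (log2 0.42, SE 0.13, adjusted p = 0.0441). Among 14 further genes of NADPH supply, 2 were higher and 1 lower at 24 h in PBS. The mitochondrial malic enzyme ME2 fell (log2 -0.97, SE 0.18, adjusted p = 0.00156), while hexokinase HK1 (0.59, SE 0.11) and the mitochondrial isocitrate dehydrogenase IDH2 (0.62, SE 0.13) rose. The same 3 genes were called in the same directions in flagellin and in SB203580 plus flagellin. Among 20 other NRF2-linked detoxification genes, 3 were lower in PBS, led by the cytochrome CYP1B1 (log2 -3.88, SE 0.58, adjusted p = 0.000289) and UGDH, which makes UDP-glucuronate (log2 -1.11, SE 0.23, adjusted p = 0.00428). CYP1B1 is best known as a target of the aryl hydrocarbon receptor. Among 20 genes of iron and haem handling, HMOX2, the constitutive haem oxygenase, rose (log2 0.74, SE 0.19, adjusted p = 0.0173), and the transferrin receptor TFRC and the haem synthesis enzyme CPOX fell (log2 -1.05, SE 0.32, and -0.56, SE 0.17). None of 19 genes of glutathione synthesis and transfer was called in PBS without a block, and 2 were higher and 2 lower with the set term. Among 15 genes of the ATF4 stress response, which shares SLC7A11 as a target, the secreted STC2 was the 1 called in PBS and rose (adjusted p = 0.000108, and log2 1.47, SE 0.15, with the set term).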

How the data were processed

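RNA of 24 libraries was measured. The deposited table gives raw read counts by gene, per the file headers. The submitters' processing notes name Subread 1.4.6-p1 with featureCounts, STAR 2.4.0a, and GRCm38, which is a mouse build although the gene IDs are of pig. Which pig assembly was used, and whether strand was, is not given in the sources used here. Coordinates are therefore as the table gives them, and reads of overlapping, antisense or near-identical genes could be shared. Of 31868 features, the 25880 pig genes were used, 14857 of them with a symbol. The deposited exon length served for TPM. The members and lists were chosen with earlier results of these data known.

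Counts were scaled with TMM and filtered with filterByExpr, which left 14172 genes, and tested with edgeR 4.0.16 (R 4.3.3) by the quasi-likelihood F test with 1 mean per group (18 residual degrees of freedom). The further fits had a term for the replicate set at each time (16) or the replicate number as a block (15). SE is the log2 difference over the square root of F. P-values are two-sided. CPM uses TMM-scaled totals. Same-numbered libraries deviated from their group means together in every comparison (correlation 0.211 to 0.797). With the mean of each replicate set in a group taken out as well, the correlation of same-numbered libraries was -0.422 to 0.363. The numbers thus went together by replicate set, and a pairing within a set was not shown.

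Values per library were printed for members called between treatments in any of these fits, for the members called with time in PBS, and for NFE2L2, KEAP1, HMOX1, NQO1, GCLM and SLC7A11. Genes outside the members came from the lists, up to 4 called per list and comparison; other members, such as SQSTM1, TXNRD1, MAFG, EPHX1, PGD and GSR, were singled out after their values were seen. Alternatives were RLE size factors, no filter, DESeq2 1.42.0, the compared groups alone, each replicate set alone, each library left out and, chosen after seeing the data, leaving out the 5 libraries low in ciliated cell markers. The script was tested on simulated data.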

Additional observations from a re-analysis of the deposited data

Results flagged for a closer look

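In 20 of 192 sets of 4 libraries (32 members in 6 groups), 1 library stood apart from the other 3 by Dixon's ratio, where chance gives about 9.6. Replicate 2 of flagellin at 24 h accounted for 8 of them. It had 2557 CPM of NQO1 (124 to 268 in the other 3), 2547 of FTL (1241 to 1354), 307 of TALDO1 (142 to 164), 289.9 of ME1 (111 to 131), 119 of HMOX1 (58.0 to 62.3), 73.9 of ABCC1 (35.4 to 40.0), 53.1 of BLVRB (36.5 to 38.8) and 2.91 of GPX3 (0.241 to 0.395). Replicate 1 of SB203580 plus flagellin at 2 h had 773 CPM of TKT (471 to 513), 319 of ME1 (119 to 150.3), 262 of TALDO1 (164 to 174) and 116 of SLC7A11 (42.2 to 52.3). Replicate 2 of PBS at 2 h had 2098 CPM of FTL (1072 to 1183), 732 of TKT (437 to 487) and 149 of CAT (74.0 to 86.3). These 3 libraries are among the 5 that were low in ciliated cell markers.

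Replicate 3 of SB203580 plus flagellin at 24 h had 65.8 CPM of HMOX1 (44.7 to 47.0 in the other 3) and, on the low side, 111 of ABCC3 (166 to 173). Replicate 3 of flagellin at 2 h had 173 CPM of TXNRD1 (106 to 114) and, on the low side, 1045 of FTL (1423 to 1449). Replicate 4 of PBS at 24 h had 39.1 CPM of OSGIN1 (20.7 to 21.9).

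SOD2 was listed because SB203580 plus flagellin lay below flagellin in 4 of 4 replicates at 2 h (log2 -0.24) and above it in 4 of 4 at 24 h (log2 0.46). The test of the difference gave 0.70 with an adjusted p of 1.00 by edgeR.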

How the results depend on the processing

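RLE size factors, no filter and DESeq2 left every count of members called within 1.5 times (DESeq2 gave 6 in place of 4 in PBS with time, all lower). Fitted on the compared groups alone, members called were 0 for flagellin against PBS at 2 h, 2 for PBS with time and 0 for SB203580 plus flagellin with time. The replicate block, which pairs same-numbered libraries, gave 2, 11 and 4 there, and changed no other count by over 1.5 times. The set term gave 2 for flagellin and 1 for SB203580 plus flagellin against PBS at 2 h, 1 for SB203580 plus flagellin against PBS at 24 h, and 13, 9 and 6 with time in PBS, flagellin and SB203580 plus flagellin.

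Replicates 1 and 2 alone gave 0 for flagellin against PBS at 2 h and 8 for PBS with time. Replicates 3 and 4 alone gave 2 for flagellin against PBS at 2 h, 1 each for SB203580 plus flagellin against flagellin and against PBS at 2 h, 1 for flagellin by time, and 13, 17 and 14 with time in PBS, flagellin and SB203580 plus flagellin. Without the 5 libraries low in ciliated cell markers, flagellin with time gave 7. For the fits on each set alone and without the 5 libraries, the share of all genes called is not given here. Their counts can therefore not be read as particular to the members. Leaving out 1 library at a time gave 0 to 1 for flagellin against PBS at 2 h, 1 to 4 for PBS with time, 3 to 4 for flagellin with time, 1 to 2 for SB203580 plus flagellin with time, 19 to 23 for the replicate sets and 0 elsewhere. Among members called in a fit over all replicates, the direction reversed once under these alternatives, for SRXN1 with time in flagellin (0.0045 in replicates 1 and 2 alone, adjusted p = 0.993). Over all genes, the calls for flagellin against PBS at 2 h were 46, against 24 on the compared groups alone, 105 with DESeq2 and 15 to 42 without 1 library. With time they were 1440 in PBS, 1120 in flagellin and 975 in SB203580 plus flagellin, against 532, 300 and 118 on the compared groups alone and 835 to 1319, 710 to 1029 and 625 to 836 without 1 library. DESeq2 gave 1486 for the last. The block gave 151 at 2 h and 3183, 2664 and 2422 with time. The causes were not tested. Depth did not limit members other than GPX3 and ABCC2, which lay near 1 CPM.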
